A study of Mus musculus with 6 samples.

Results

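The mRNAs described here are those of 10 factors that write, copy, erase or protect DNA methylation around the oocyte-to-embryo transition: *Dnmt1*, *Uhrf1*, *Dppa3*, *Dnmt3a*, *Dnmt3b*, *Dnmt3l*, *Kdm1b*, *Tet3*, *Zfp57* and *Trim28*. They were taken by symbol from the deposited table, which holds 25899 genes once duplicated symbols are reduced to the row with the highest mean, and all 10 were found. The 6 libraries come from oocytes of aged females (AF), which were CD1 mice of 58 weeks primed with gonadotropin per the labels, whereas the study's methods name the strain ICR and give a rounder age. Fully grown oocytes were released from the IBMX block on meiotic resumption, cultured for 180 min to nuclear envelope breakdown (NEBD) and held for a short time in cycloheximide, which keeps ribosomes on the mRNA. The lysate of 200 oocytes per sample was spread over 10 fractions of a sucrose gradient, which were pooled into non-polysomal (NP, replicates 1 to 3) and polysomal (P, replicates 1 to 3) RNA, so both groups share strain, age, stage and agents and differ only in the part of the gradient. Each sample is a pool of oocytes, and libraries of young females were not analysed here. No label says that the replicates came from separate animals or cultures, so the p-values below measure only the spread between these samples, and in pooled RNA fewer molecules recovered from a fraction and less mRNA per oocyte cannot be told apart.

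As background, DNA methylation in mammals is placed mainly on cytosines followed by guanine (CpG). In the growing oocyte DNMT3A, helped by its inactive relative DNMT3L, lays down the maternal pattern, including the marks of maternally imprinted genes, and KDM1B clears a histone mark (methylation of H3 lysine 4) that would keep these enzymes away. DNMT1 copies existing methylation after replication and is guided to DNA by UHRF1, and DPPA3 (also called Stella or PGC7) restrains UHRF1 in the oocyte and shields the maternal genome from TET3, which oxidises methylated cytosine in the zygote. After fertilization ZFP57 and its corepressor TRIM28 keep imprints methylated while the rest of the genome loses its methylation. The oocyte and early embryo draw these proteins from maternal mRNA, so where each mRNA sits on the gradient at NEBD is the question that the comparison of P with NP addresses.

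Since polysome loading in maturing oocytes is known to go with cytoplasmic polyadenylation, the letters near the end of the transcript with the longest 3′ UTR of each gene were read (GENCODE M21, GRCm38). Printed here, 5′ to 3′, are 30 bases from the first cytoplasmic polyadenylation element (TTTTAT or TTTTAAT) within 100 bases of the end, or, where there is none, the bases up to the last polyadenylation signal (AATAAA or ATTAAA), with each motif that lies whole within the stretch in capitals. The signals of *Dnmt1* and *Dnmt3a* run past the last base printed and stay in lower case. Elements and signals can overlap, as they do in *Tet3*, and only the sense strand was read.
Dnmt1 (chr9:20907227-20907256, minus strand): TTTTATatgttgtaatatttcttcaaaata
Dnmt3a (chr12:3914389-3914418, plus strand): TTTTATtttcgctataaatagagcttcaat
Tet3 (chr6:83362379-83362408, minus strand): TTTTAATAAATTTTATatttattttttgca
Dppa3 (chr6:122630230-122630259, plus strand): acgttctaatttccagaaatttgtAATAAA
Zfp57 (chr17:37010563-37010592, plus strand): ccaccccttacccccaccccacaaAATAAA
Uhrf1 (chr17:56323443-56323472, plus strand): tagattgttaacatattgcAATAAAATAAA
Trim28 (chr7:13030988-13031017, plus strand): aatggtttttacttctgtggatttAATAAA
Dnmt3b (chr2:153687684-153687713, plus strand): gcccagagtttacctttctggttgATTAAA
An element was found in *Dnmt1*, *Dnmt3a* and *Tet3*, 3 of the 10 mRNAs (30%), against 3182 of 19111 protein-coding genes of the table (16.7%). A signal was found in 8 of 10 (80.0%), against 75.3% of all, and neither set of letters lay in this window of *Dnmt3l* or *Kdm1b*. The element of *Dnmt1* began 48 bases from the end and its signal 22 bases from the end, and in *Dnmt3a* these distances were 55 and 28 bases. The annotated 3′ UTRs spanned from 114 bases in *Zfp57* to 6696 in *Dnmt3a*, with a median of 648 against 949 over all genes. Such matches describe the annotated letters, and which 3′ end the oocyte uses was not measured.

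CpG is also the substrate of these enzymes, and several of their genes have alternative first exons. In RefSeq (GRCm38.p6) 18 promoters of 9 of the 10 genes were matched, each of 300 bases, and the count of CpG per promoter ranged from 2 to 47 against a median of 7 over 32851 promoters. *Dnmt1* is known to use different first exons in oocytes and somatic cells, and its 3 promoters differed in CpG. The upstream start held 2 CpG, with 14.1% of all promoters holding fewer, the middle start 12, with 60.4% holding fewer, and the proximal start 33, with 91.4% holding fewer. The outer starts are shown with *Dnmt3l*, whose first promoter (6 CpG) lies inside the neighbouring *Aire* gene, because for these genes the summed FPKM cannot say which start was used. CpG is in capitals, and since it reads the same on both strands it was counted once.
Dnmt1, upstream start (chr9:20959839-20960138, minus strand): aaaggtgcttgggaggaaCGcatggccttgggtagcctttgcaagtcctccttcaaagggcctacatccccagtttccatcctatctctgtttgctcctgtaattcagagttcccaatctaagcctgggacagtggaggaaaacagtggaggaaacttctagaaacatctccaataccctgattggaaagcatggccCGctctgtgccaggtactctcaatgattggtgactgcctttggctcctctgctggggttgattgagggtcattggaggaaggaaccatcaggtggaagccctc
Dnmt1, proximal start (chr9:20952574-20952873, minus strand): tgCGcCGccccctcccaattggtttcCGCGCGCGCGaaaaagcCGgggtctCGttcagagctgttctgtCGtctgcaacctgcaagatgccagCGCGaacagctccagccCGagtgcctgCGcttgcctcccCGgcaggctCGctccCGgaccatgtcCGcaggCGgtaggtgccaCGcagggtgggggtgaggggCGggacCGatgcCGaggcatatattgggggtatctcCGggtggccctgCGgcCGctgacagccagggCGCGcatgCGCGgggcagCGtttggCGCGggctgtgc
Dnmt3l, first start (chr10:78042037-78042336, plus strand): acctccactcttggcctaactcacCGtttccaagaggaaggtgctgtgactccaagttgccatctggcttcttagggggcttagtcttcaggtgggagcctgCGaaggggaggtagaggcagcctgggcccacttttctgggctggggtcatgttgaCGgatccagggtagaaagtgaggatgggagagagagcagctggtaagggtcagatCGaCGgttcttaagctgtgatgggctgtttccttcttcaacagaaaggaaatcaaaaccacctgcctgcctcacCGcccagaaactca
The *Dnmt3a* promoters held 46, 47 and 18 CpG, those of *Dnmt3b*, *Kdm1b*, *Trim28* and *Tet3* 30, 26, 23 and 22, those of *Uhrf1* 12 and 33, and those of *Zfp57* between 4 and 9.

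Expression is given as FPKM, reads scaled to the length of the exons and to the mapped reads of the library, which is per length. The length taken, all exons of a gene, was 1.07 (*Dppa3*) to 2.17 (*Zfp57*) times that of its transcript with the longest 3′ UTR, so comparisons between genes depend on it. Recovered from the steps between low values, the depth was 1237799 to 18096676 reads in the NP libraries and 163822 to 1549317 in the P libraries, with P replicate 1 the shallowest. These depths are estimates, since 56.2% to 62.9% of the low values per library came out whole within 0.02 reads. Recovered reads summed over exons also came to 1.83 to 2.24 times that depth in NP and to 1.1 to 1.38 times in P. It is therefore unsettled whether 1 step is 1 read, and each depth, read number and limit given here is in steps. FPKM summed over all genes to 597261 to 633110 in NP and to 246182 to 393876 in P, so all genes together were lower in P before any single mRNA is considered. All 10 markers of oocytes were above 0 in the NP libraries, with sums of 10965 to 14001 FPKM in NP and 4530 to 14075 in P. *Figla*, at most 1.52 FPKM in NP, was at 0 in P replicates 1 and 3. The log2 ratio of P over NP, described below, was below 0 in 7 of the 10 (80.1% of all genes tested) and above 0 in *Gdf9*, *Bmp15* and *Nlrp5*. Fractions did not overlap for *Zp1*, *Zp3* and *Nobox*, all lower in P, 3 of 10 against 23.8% of all genes. Of these *Nobox*, an oocyte transcription factor, passed the threshold used below and was lower in P (387, 567 and 406 FPKM in NP replicates 1 to 3, 32.1, 104 and 37.3 in P, limma adjusted p = 0.0586, so not past a threshold of 0.05), 1 of 10 against 1.8% of all genes called lower. Of 12 granulosa and cumulus cell markers 7 were at 0 in all 6 libraries, *Foxl2*, *Amh* and *Fshr* among them. The list summed to 11.2 to 131 FPKM in NP and 1.54 to 16.5 in P, carried mainly by *Cyp19a1* (7.15, 22.5 and 104 FPKM in NP replicates 1 to 3, 15.4, 0 and 0 in P) and *Nr5a2* (3.37, 6.32 and 26.9, and 0, 5.71 and 1.18). Of 6 blood markers matched, 5 were at 0 in all libraries and the sixth reached 0.643 FPKM. The part of these differences in depth, FPKM sum and markers in the ratios below was not tested.

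Most of these factors were among the abundant mRNAs of the oocyte, and the exceptions were the de novo methyltransferases *Dnmt3a* and *Dnmt3b*. Together the 10 mRNAs held 0.227% to 0.303% of the FPKM sum in the NP libraries and 0.368% to 0.544% in the P libraries, while their summed FPKM overlapped, at 1434 to 1854 in NP and 1099 to 1857 in P. *Dnmt1*, *Zfp57* and *Dppa3* made up 56.7% to 75.8% of that share in each library. Ranked by mean in NP, the order ran *Zfp57*, *Dnmt1*, *Dppa3*, *Uhrf1*, *Tet3*, *Dnmt3l*, *Kdm1b*, *Trim28*, *Dnmt3b* and *Dnmt3a*. In 6 of the 9 neighbouring pairs of this order the libraries overlapped, and the steps without overlap were *Dnmt3l* over *Kdm1b*, *Trim28* over *Dnmt3b* and *Dnmt3b* over *Dnmt3a*. In P the order began with *Dppa3*, *Dnmt1* and *Zfp57* and ended likewise with *Dnmt3b* and *Dnmt3a*, and only the step from *Kdm1b* to *Dnmt3b* was without overlap among 9.

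**Figure D1:**
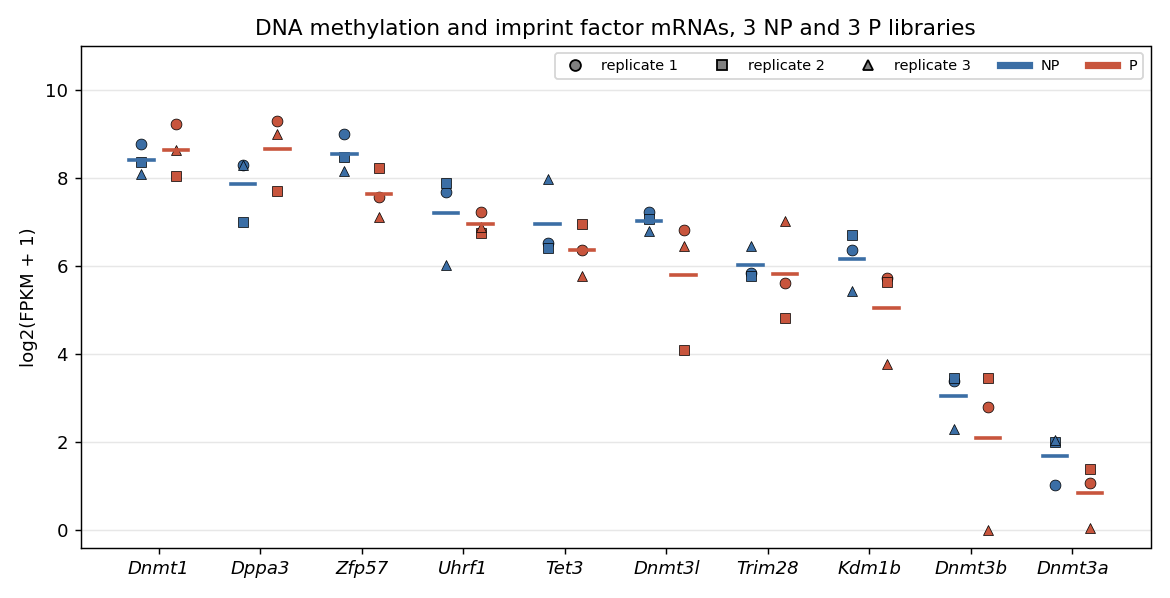
Level of each mRNA as log2(FPKM + 1), with 1 point per library (circle, square and triangle for replicates 1, 2 and 3), NP in blue and P in red, and a bar at the mean of 3. The means of the first 8 mRNAs from the left lie above those of *Dnmt3b* and *Dnmt3a*, and NP and P points overlap for every mRNA.

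Maintenance of methylation was represented by the most abundant enzyme of the group. *Dnmt1* (chromosome 9, 20907206 to 20959888, minus strand) stood at 436, 330.1 and 273 FPKM in NP replicates 1, 2 and 3 and at 596, 262 and 399 in P replicates 1, 2 and 3. The values of the fractions overlapped, with P replicate 1 the highest and P replicate 2 the lowest of the 6. The means were 346 ± 82.6 FPKM (SD, n = 3) in NP and 419 ± 168 (SD, n = 3) in P. The log2 ratio of P over NP, on FPKM + 1, was 0.22 with an SE of 0.63, a 95% interval from -1.09 to 1.53 and a limma adjusted p of 0.872. This ratio was 0.52 without P replicate 2 and turned to -0.07 without P replicate 1, whose value rests on about 721 recovered reads. *Dnmt1* was at or above the 95.6th percentile of the genes above 0 in each of the 6 libraries.

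*Uhrf1* (chromosome 17, 56303321 to 56323486, plus strand), which recognises hemimethylated DNA for DNMT1, stood at 206, 235 and 64.3 FPKM in the NP libraries and at 149, 107 and 117 in the P libraries. The 3 P values lay between NP replicate 3 and the other NP libraries. Means were 169 ± 91.5 FPKM (SD, n = 3) in NP and 124 ± 22.1 (SD, n = 3) in P, with a log2 ratio of -0.25 ± 0.78 (SE, limma adjusted p = 0.886). The ratio was 0.095 without NP replicate 2, -0.83 without NP replicate 3, and between 0.68 and 0.75 under the 3 rescalings of the libraries described further on. *Dnmt1* exceeded *Uhrf1* in every library, by a ratio of 1.402 to 4.25 in NP and of 2.46 to 4.00 in P. A processed pseudogene, *Gm5648* (98.3% identical over 1590 bases), is no row of the table, and reads from it could be counted as *Uhrf1*.

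*Dppa3* (chromosome 6, 122626410 to 122630272, plus strand), the maternal protector of methylation, stood at 311, 127 and 315 FPKM in the NP libraries and at 623, 207 and 513 in the P libraries. It was higher in P than in NP of the same number in 3 of 3 pairs, which held for 2.09% of the 10578 genes tested, although P replicate 2 lay below NP replicates 1 and 3 and the fractions therefore overlapped. That share is of the deposited FPKM, in which 80.1% of all ratios were below 0, and it was not counted on other scales. The means of *Dppa3* were 251 ± 108 FPKM (SD, n = 3) in NP and 448 ± 215 (SD, n = 3) in P. The log2 ratio was 0.80 with an SE of 0.69, a 95% interval from -0.62 to 2.23 and a limma adjusted p of 0.530, so the difference did not exceed the spread between replicates. It was the highest ratio of the 10 mRNAs, also under each of 3 rescalings (1.73 to 1.80), and was between 0.37 (without NP replicate 2) and 1.28 (without P replicate 2) with a library left out. *Dppa3* has near copies in the genome, *Dppa3-ps* (98.2% identical over 451 bases) and *Gm47576* (91.1% over 450 bases), neither of which is a row of the table, and how the authors' counting shared reads among them is not given in the sources used here.

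The mRNA of the main oocyte de novo methyltransferase was low in all 6 libraries and close to the limit of detection in P replicates 1 and 3. *Dnmt3a* (chromosome 12, 3806007 to 3914443, plus strand) stood at 1.02, 3.02 and 3.16 FPKM in the NP libraries and at 1.10, 1.63 and 0.0388 in the P libraries. In recovered reads these were 21, 909 and 637 in NP and 3, 31 and 1 in P, so P replicates 1 and 3 hold at most 3 reads over its 16642 exon bases. It ranked last of the 10 mRNAs in 5 of 6 libraries and reached at most the 44.5th percentile. The log2 ratio was -0.85 ± 1.01 (SE, limma adjusted p = 0.648), and its sign was the opposite, 0.38, under quantile normalization. It moved to -1.77 with a pseudocount of 0.1 and -0.32 with one of 5, and to between -1.19 and -0.46 with a library left out.

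*Dnmt3b* (chromosome 2, 153649450 to 153687730, plus strand), the other catalytic de novo enzyme, stood at 9.49, 9.98 and 3.87 FPKM in the NP libraries and at 5.98, 9.95 and 0 in the P libraries. The 0 of P replicate 3 allows up to 0.379 FPKM, the worth of 3 reads, and P replicate 1 rests on 5 reads. NP and P replicate 2 were nearly equal, and the means were 7.78 ± 3.39 FPKM (SD, n = 3) in NP and 5.31 ± 5.01 (SD, n = 3) in P. The log2 ratio of -0.96 ± 1.28 (SE, limma adjusted p = 0.695) was 0.08 without P replicate 3, -1.64 without P replicate 2, 0.14 under quantile normalization and -1.99 with a pseudocount of 0.1. A near copy, *Dnmt3c* (93.9% identical over 1434 bases), is not a row of the table, so reads of both could be counted as *Dnmt3b*.

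*Dnmt3l*, the cofactor, was higher than *Dnmt3a* and *Dnmt3b* in every library. The gene (chromosome 10, 78041947 to 78063622, plus strand) stood at 148, 133 and 110.2 FPKM in the NP libraries and at 112, 16.1 and 86.6 in the P libraries. P replicate 2, with 55 recovered reads, stood well below the other 5 libraries, and P replicate 1, also with 55, lay inside the NP range. Means were 130.5 ± 19.02 FPKM (SD, n = 3) in NP and 71.7 ± 49.8 (SD, n = 3) in P. The log2 ratio was -1.24 with an SE of 0.88, a 95% interval from -3.07 to 0.59 and a limma adjusted p of 0.471, and the ratio was -0.39 without P replicate 2 and -1.75 without P replicate 1. In NP it exceeded *Dnmt3a* by 145, 44.2 and 34.9 times in replicates 1, 2 and 3, and in P by 102 and 9.88 times in replicates 1 and 2. P replicate 3 is left out of these ratios because *Dnmt3a* has a single read there, and the 102 of P replicate 1 rests on only 3 reads of *Dnmt3a*. The ratio of *Dnmt3l* to *Dnmt3b* was 15.6, 13.4 and 28.4 in NP, and in P it was 18.8 in replicate 1 and only 1.62 in replicate 2. *Dnmt3l* shares 1664 bases with *Aire* on the opposite strand, and the NP libraries held *Aire* at 10.8, 13.6 and 4.87 FPKM and the P libraries at 0, 12.4 and 98.0. The strand setting of the counting is not given in the sources used here, so reads in these shared bases cannot be assigned, and the part of *Aire* in the *Dnmt3l* value of P replicate 3 was not tested.

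*Kdm1b* (chromosome 13, 47043499 to 47084613, plus strand), the demethylase of H3 lysine 4, stood at 81.8, 103 and 42.2 FPKM in the NP libraries and at 51.8, 48.6 and 12.6 in the P libraries. P replicate 3 was the lowest, and NP replicate 3 lay below P replicates 1 and 2. Means were 75.6 ± 30.7 FPKM (SD, n = 3) in NP and 37.7 ± 21.8 (SD, n = 3) in P, with a log2 ratio of -1.13 ± 0.94 (SE, limma adjusted p = 0.521), which was -0.49 without P replicate 3 and -1.50 without NP replicate 3. *Kdm1b* shares 1239 bases with *Tpmt* on the opposite strand (69.2, 37.4 and 9.56 FPKM in NP, 38.3, 20.1 and 88.7 in P). A stretch of 505 bases is also identical in a transcript of *Dek*, which was below 1 FPKM in all 6 libraries.

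*Tet3* (chromosome 6, 83362373 to 83441678, minus strand), the dioxygenase that starts active demethylation in the zygote, stood at 90.9, 83.4 and 249 FPKM in the NP libraries and at 80.9, 123 and 54.0 in the P libraries. NP replicate 3 stood apart at the top, and the other libraries of NP and P were mixed. Means were 141 ± 93.7 FPKM (SD, n = 3) in NP and 86.0 ± 34.8 (SD, n = 3) in P. The log2 ratio of -0.60 ± 0.82 (SE, limma adjusted p = 0.704) was -0.10 without NP replicate 3, -0.89 without P replicate 2 and positive under all 3 rescalings (0.33 to 0.55).

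Of the imprint protectors, the zinc finger protein that reads the methylated motif was more abundant than its corepressor in every library. *Zfp57* (chromosome 17, 37001163 to 37010635, plus strand) stood at 514, 358 and 286 FPKM in the NP libraries and at 189, 297 and 138 in the P libraries. P was lower than NP of the same number in 3 of 3 pairs, which held for 38.6% of all genes tested, and P replicate 2 lay above NP replicate 3. Means were 386 ± 117 FPKM (SD, n = 3) in NP and 208 ± 81.1 (SD, n = 3) in P, with a log2 ratio of -0.92, an SE of 0.67, a 95% interval from -2.3 to 0.46 and a limma adjusted p of 0.477. Under the 3 rescalings the ratio was between 0.01 and 0.14, the other side of 0.

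*Trim28* (chromosome 7, 13024152 to 13031035, plus strand), which joins ZFP57 to histone and DNA methyltransferases, stood at 56.5, 53.4 and 86.4 FPKM in the NP libraries and at 48.3, 27.3 and 129 in the P libraries. The lowest and the highest library were both P, and the means nearly coincided at 65.5 ± 18.2 (SD, n = 3) in NP and 68.1 ± 53.6 FPKM (SD, n = 3) in P. The log2 ratio was -0.20 ± 0.90 (SE, limma adjusted p = 0.925), and it was 0.30 without P replicate 2, 0.02 without NP replicate 3, -0.80 without P replicate 3 and 0.72 to 0.78 under the 3 rescalings. The ratio of *Zfp57* to *Trim28* was 9.09, 6.70 and 3.31 in NP and 3.91, 10.9 and 1.07 in P, and with the length of a single transcript for each gene it was 5.59 to 15.4 in NP and 1.81 to 18.4 in P. *Dppa3* over *Zfp57* was 0.605, 0.354 and 1.10 in NP and 3.30, 0.699 and 3.72 in P, higher in P in 3 of 3 pairs but with P replicate 2 below NP replicate 3. This restates the values of both genes given above, and how many pairs of genes do the same was not counted. Its level, though not its order among libraries, depends on the lengths taken, 1.07 (*Dppa3*) and 2.17 (*Zfp57*) times that of a single transcript.

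**Figure D2:**
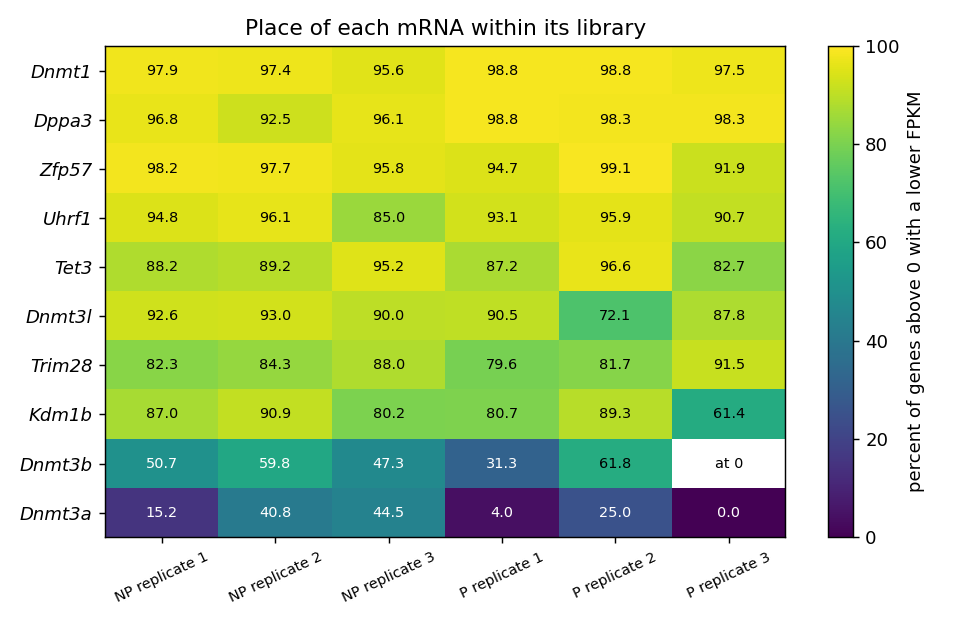
Percent of genes above 0 in the same library that have a lower FPKM, for each mRNA (rows) in each library (columns), with colour and number showing the same value and white marking the library where *Dnmt3b* is at 0. *Dnmt1*, *Dppa3* and *Zfp57* are at or above 91.9 in every library, whereas *Dnmt3a* is at or below 44.5.

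None of the 10 mRNAs passed the threshold for a difference between P and NP. The test was limma on log2(FPKM + 1) over 10578 genes with a mean above 1 in either fraction, two-sided, at a Benjamini-Hochberg adjusted p below 0.1. Over all genes 2 (0.0189%) were called higher and 190 (1.8%) lower in P, and under the 3 rescalings of the libraries the lower calls were 1 to 5. This fit had fraction as its only term, and with the replicate number as a block 5 genes were called higher and 663 lower. At an unadjusted p below 0.05 the count was again 0 of 10, against 15.8% of all genes (7.2% to 7.66% under the rescalings), and an exact permutation test of 3 libraries against 3 could not go below p = 0.1. Fractions that did not overlap were seen in 0 of 10, against 23.8% of all genes. The intervals span from about -3.61 (*Dnmt3b*) to 2.23 (*Dppa3*) on the log2 scale, so differences of several fold in either direction could have been missed.

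The ratio was below 0 in 8 of the 10 mRNAs, against 80.1% of all genes tested, and the median of the 10 was -0.72 against -1.03 over all genes. Without P replicate 3 the median of the 10 was -0.38 against -0.93 over all genes, and with a pseudocount of 5 it was -0.36 against -0.52. Relative to that all-gene median 8 of 10 mRNAs lay above it, *Dppa3* by 1.83, *Dnmt1* by 1.25, *Trim28* by 0.83, *Uhrf1* by 0.78 and *Tet3* by 0.43, while *Dnmt3l* (-0.21) and *Kdm1b* (-0.10) lay below. Lower in P in 3 of 3 pairs were *Dnmt3b*, *Dnmt3l*, *Zfp57* and *Kdm1b*, 4 of 10 against 38.6% of all genes. The direction of most ratios depends on how the libraries are brought to a common scale. The median ratio of all genes moved from -1.03 in the deposited FPKM to -0.37 with median-of-ratios factors, -0.43 with a common FPKM sum and 0.0027 with quantile normalization. The median of the 10 mRNAs was then 0.23, 0.17 and 0.47. *Dnmt1* and *Dppa3* were positive on all 4 scales and *Dnmt3l* and *Kdm1b* negative on all 4, whereas *Uhrf1*, *Tet3*, *Trim28* and *Zfp57* changed sign under all 3 rescalings and *Dnmt3a* and *Dnmt3b* under quantile normalization. *Kdm1b* was nearly 0 with quantile normalization (-0.018) and stood at -0.153 with median-of-ratios factors. Relative to the all-gene median of each scale, 7 of 10 mRNAs kept their sign throughout, and *Dnmt3a*, *Dnmt3l* and *Kdm1b* did not.

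**Figure D3:**
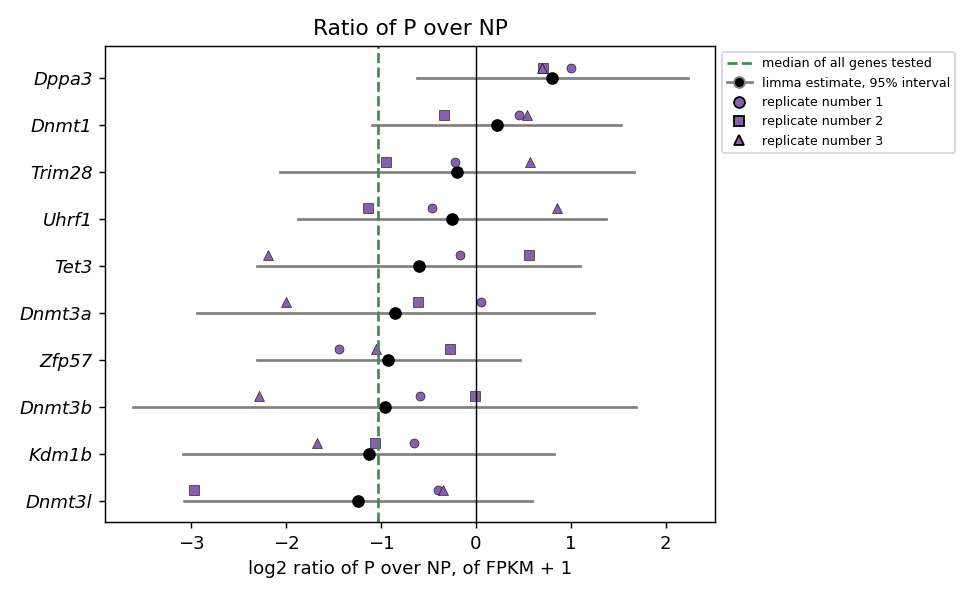
Log2 ratio of P over NP of each mRNA (black point, limma estimate with its 95% interval) and the ratio of each pair of libraries with the same number (purple), on FPKM + 1, with the median of all genes tested as a dashed line at -1.03. Every interval includes 0, with only *Dppa3* above 0 in all 3 pairs.

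**Figure D4:**
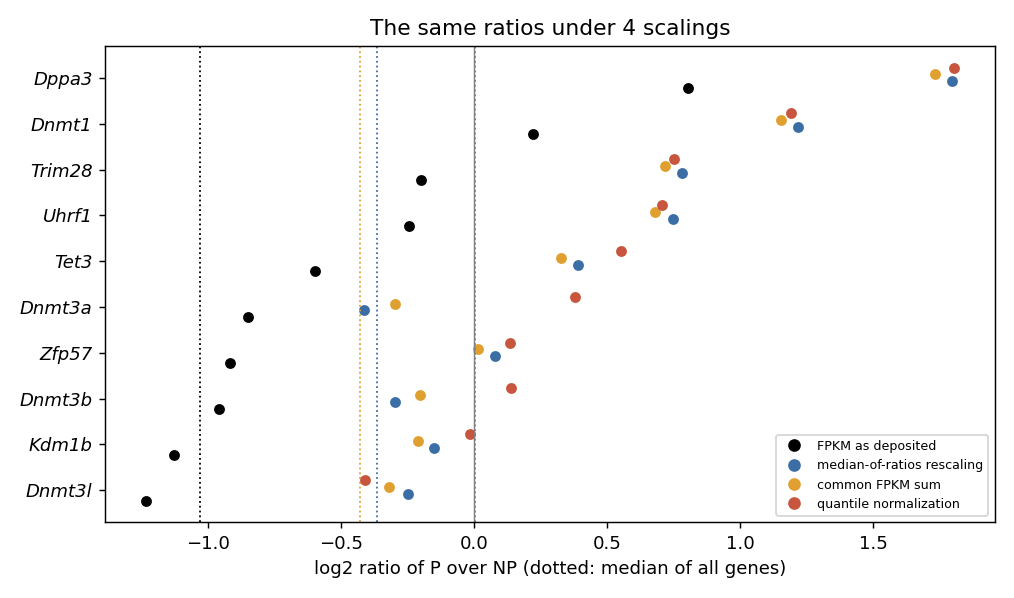
The same log2 ratios in the deposited FPKM (black) and after median-of-ratios, common-sum and quantile rescaling (blue, yellow, red), with the median of all genes on each scale as a dotted line. *Dppa3* and *Dnmt1* stay right of 0 and *Dnmt3l* and *Kdm1b* left of 0 on all 4, whereas *Uhrf1*, *Tet3*, *Trim28* and *Zfp57* cross under all 3 rescalings and *Dnmt3a* and *Dnmt3b* under quantile normalization. The quantile value of *Kdm1b* is nearly 0 (-0.018).

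Within the TET and UHRF families 1 member was above the others in every library. Beside *Tet3*, the paralogue *Tet1* was at most 0.0902 FPKM in any library, and *Tet2* was at 8.36 in NP replicate 1 and at most 0.286 elsewhere. *Uhrf2* was at most 2.13 FPKM against at least 64.3 for *Uhrf1*. *Kdm1a*, the other flavin-dependent histone demethylase, stood at 11.1, 16.0 and 0.0478 FPKM in the NP libraries and at 8.25, 26.4 and 17.4 in the P libraries. *Kdm1b* exceeded *Kdm1a* in every library but P replicate 3. These paralogues were picked after values had been seen and are given as a description.

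**Figure D5:**
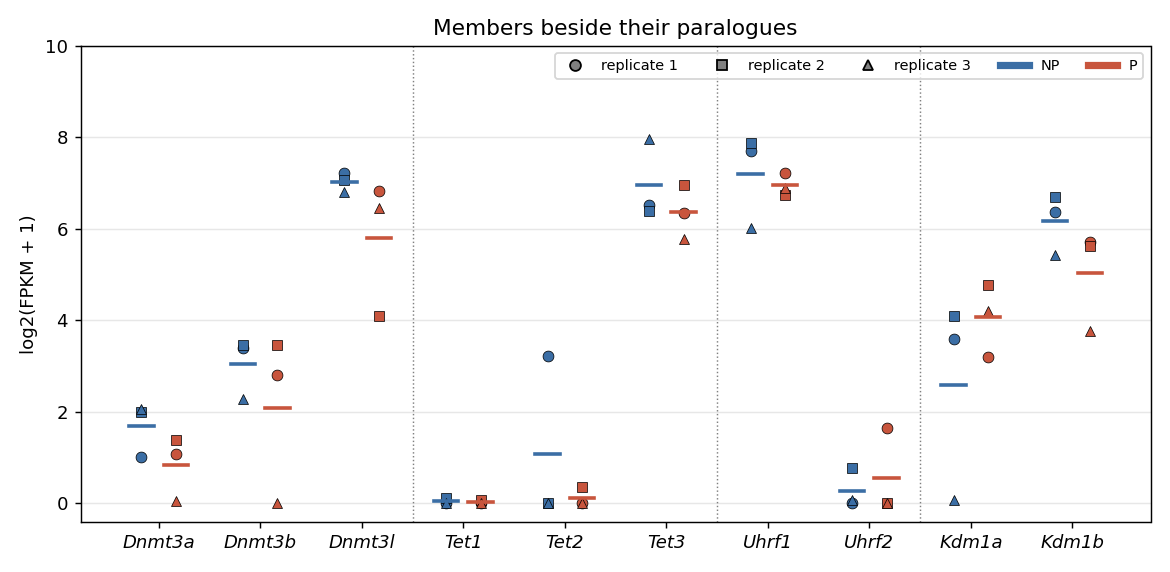
Log2(FPKM + 1) of 4 families, the DNMT3, TET, UHRF and KDM1 genes, with 1 point per library (symbols for replicates, NP blue, P red) and bars at the means of 3. *Tet3* and *Uhrf1* lie above their paralogues in all 6 libraries, *Dnmt3l* above *Dnmt3a* and *Dnmt3b* in all 6, and *Kdm1b* above *Kdm1a* in 5.

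Genes that work with these factors were also measured, in lists fixed beside the 10 mRNAs. Of 20 genes of methylation reading, maintenance and base excision, 13 were tested and 0 passed the threshold in either direction (0 also at an unadjusted p below 0.05), with a median log2 ratio of -0.97 against -1.03 over all genes. Highest in the mean over all 6 libraries were *Ung*, the uracil glycosylase (106 ± 4.39 FPKM in NP and 55.0 ± 14.9 in P, SD, n = 3), *Pcna*, the replication clamp (56.5 ± 69.1 and 21.4 ± 29.96), and *Usp7*, which deubiquitinates UHRF1 and DNMT1 (16.9 ± 6.09 and 40.0 ± 16.8). In the deposited FPKM *Usp7* was higher in P in 3 of 3 pairs (2.09% of all genes) and *Ung* lower in 3 of 3 (38.6%), and in both the fractions did not overlap (23.8%). Of 16 other genes of imprint protection and its corepressors, 11 were tested and 0 passed (0 also unadjusted), with a median of 0.35 against -1.03 over all genes. That median is the ratio of *Zfp445*, at 1.09, 0.131 and 0.0557 FPKM in NP and at 0, 4.14 and 0 in P. *Smchd1* and *Arid4a* were likewise above 0 in P in replicate 2 alone, and the median was not computed on other scales. Fractions did not overlap for *Daxx*, lower in P, and *Atrx*, higher in P, 2 of 11 against 23.8% of all genes. *Nlrp2*, a maternal effect gene, was at 85.5 ± 55.4 FPKM in NP and 110.1 ± 34.8 in P, *Setdb1*, the H3 lysine 9 methyltransferase that TRIM28 recruits, at 85.7 ± 30.8 and 50.9 ± 16.4, and *Daxx*, a chaperone of histone H3.3, at 19.5 ± 7.98 and 5.88 ± 2.78. In both fractions the libraries of *Setdb1* overlapped with those of its partner *Trim28*.

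Of 15 genes of histone marks that guide methylation in the oocyte, 14 were found, 13 tested and 0 passed (0 also unadjusted), with a median of -0.11 against -1.03 over all genes and fractions without overlap in 1 (*Kdm5a*, lower in P). *Eed*, a subunit of the Polycomb complex PRC2, was at 58.0 ± 51.6 FPKM in NP and 55.9 ± 24.98 in P, *Glyr1* at 42.2 ± 29.0 and 9.59 ± 7.66, and *Nsd1*, an H3 lysine 36 methyltransferase, at 18.4 ± 13.4 and 21.1 ± 6.52. Of 26 imprinted transcripts 25 were found, of which 7 were at 0 in all 6 libraries and 12 were tested. None passed the threshold, with a median of -1.38 against -1.03 over all genes, and 2 (*Mest* and *Peg3*) were lower at an unadjusted limma p below 0.05, near the 15.5% of all genes. *Mest*, a maternally methylated gene, stood at 88.1, 68.3 and 307 FPKM in the NP libraries and at 48.1, 33.4 and 21.8 in the P libraries. *Peg3* stood at 11.3, 5.37 and 4.36 FPKM in the NP libraries and at 0, 0.724 and 0 in the P libraries. Fractions did not overlap for these and for *Gnas*, 3 of 12, near the 23.8% of all genes. The other abundant transcripts, *Grb10* and *Igf2r*, were at 29.97 ± 23.3 and 17.7 ± 12.7 FPKM in NP and at 10.1 ± 7.09 and 22.3 ± 19.7 in P.

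With all exons as the length, *Dnmt1* has the highest mean of the 10 over all 6 libraries together. Over the 6 libraries the pattern most like that of *Dnmt1* was that of *Fbxw28* (Pearson r = 0.956 of log2(FPKM + 1)), *Ptpn23* (0.954) and *Nudt5* (0.946), out of 3628 genes above 0 in all libraries and with a mean above 10 FPKM. All share a high value in P replicate 1, the shallowest library, and with only 6 points, which share their depth and scale, this is a description only.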

How the data were processed

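Expression was measured in 6 RNA-seq libraries of AF oocytes, 3 NP and 3 P. RNA was depleted of rRNA, amplified as cDNA and made into Nextera libraries. The authors used Trim Galore 0.4.1 for trimming and HISAT2 2.0.5 for alignment to GRCm38, and deposited FPKM per gene computed in Seqmonk. Not given in the sources used here are the annotation release, the strand setting and the filters on reads. The deposited means of each fraction were not used.

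The 10 mRNAs, the lists of other genes and the rule for named genes (all 10, the 3 highest genes of each list and those past the threshold, and the 3 most like *Dnmt1*) were chosen with earlier results of these data known. Outside this rule, the paralogues, marker genes other than the 3 highest, *Peg3*, *Gnas*, *Kdm5a*, *Atrx*, *Zfp445*, *Smchd1* and *Arid4a* were named after their values were seen. Ratios of 1 mRNA to another were outside it as well. Steps between low FPKM values gave the depth, with GENCODE M21 exon lengths, found for 22570 genes (87.1%). Reads came out whole for 6 of the 10 and only approximately for *Dnmt1*, *Tet3*, *Trim28* and *Kdm1b*. Amplified reads are not independent molecules, so limits from 3 reads cover counting error only. P was compared with NP by limma 3.58.1 (R 4.3.3), with a pseudocount of 1 and the spread allowed to follow the level. Fold changes on log2(FPKM + 1) understate those of low genes. The script was checked on simulated data. Near copies, of at least 90% identity over 150 bases, were found with BLAST 2.17.0.

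NP and P were each pooled from fractions of the same sample, so where pairs are counted, libraries with the same number are taken as parts of 1 gradient, although no source used here says so in words. The main fit had no term for this pairing, so its SE, intervals and p-values are those of an unpaired comparison. The replicate block was run only as an alternative. Deviations from the group means correlated at 0.063, 0.099 and 0.116 for same-numbered libraries and at -0.089 to 0.021 for the others. The alternatives changed the pseudocount, the filter or the scaling, dropped the trend, added a replicate block, left out each library, or set a threshold of 0.05.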

Additional observations from a re-analysis of the deposited data

How the results depend on the processing

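None of the 10 mRNAs passed the threshold under any of 16 alternatives, except that *Dnmt3a* was not tested at a mean FPKM above 5, with adjusted p between 0.29 and 1.0. Filter, trend, block and threshold cannot move a ratio. Of 110 ratios under the other alternatives 91 kept their direction. Signs changed under the 3 rescalings, in the order median-of-ratios, quantile, common sum, for *Uhrf1* (0.75, 0.71 and 0.68), *Tet3* (0.39, 0.55 and 0.33), *Trim28* (0.78, 0.75 and 0.72) and *Zfp57* (0.077, 0.135 and 0.012), and under quantile normalization for *Dnmt3a* (0.38) and *Dnmt3b* (0.14). With a library left out, ratios spanned -0.074 to 0.52 for *Dnmt1*, -1.64 to 0.083 for *Dnmt3b*, -0.83 to 0.095 for *Uhrf1*, -0.80 to 0.30 for *Trim28*, -1.75 to -0.39 for *Dnmt3l* and -1.50 to -0.49 for *Kdm1b*, where *Trim28* was 0.02 without NP replicate 3. The other ratios, for *Dnmt3a*, *Dppa3*, *Tet3* and *Zfp57*, spanned -1.19 to -0.46, 0.37 to 1.28, -0.89 to -0.096 and -1.21 to -0.66. The median of the 10 was 0.23, 0.47 and 0.17 under the 3 scalings. The cause of these changes was not tested.

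Counts over all genes moved more. Higher and lower in P were 2 and 67 genes with a pseudocount of 0.1, 0 and 1 without the filter, 2 and 1 with median-of-ratios, 2 and 2 with quantile and 2 and 5 with common-sum scaling, 0 and 15 without the trend, and 63 lower at a threshold of 0.05. The fit with the replicate block, which pairs libraries of the same number, called 5 higher and 663 lower and changed no call of the 10. With a library left out, 0 (NP replicate 3) to 4 (P replicate 1) were higher and 1 to 328 lower. Without NP replicate 1, 2 or 3 the lower count was 2, 10 or 1, and without P replicate 3 it was 328. With the length of a single transcript in place of all exons, mean FPKM in NP was 836 for *Zfp57*, 476 for *Dnmt1*, 233 for *Dnmt3l* and 4.12 for *Dnmt3a*, *Dnmt3l* moved from place 6 to 4 and *Uhrf1* from 4 to 6 in NP, and in P *Dnmt1* came first and *Dppa3* second. This alternative was chosen after the data were seen. P replicate 1, at 163822 reads, holds 3 reads of *Dnmt3a* and 5 of *Dnmt3b*, and P replicate 3, at 1549317 reads, holds 1 and 0.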
